A study of Homo sapiens with 2 samples.

Results

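The nuclear lamina is a meshwork of intermediate filament proteins, the lamins, that lines the inner face of the nuclear envelope. Lamins are of the A type, made from LMNA, and of the B type, made from LMNB1 and LMNB2. Membrane proteins of the envelope hold the lamina and chromatin in place, the LEM domain proteins bind the small chromatin protein BAF, and the SUN proteins reach across the envelope to the cytoskeleton as part of the LINC complex. The genes described here are 10 members of this system, chosen by symbol: LMNA, LMNB1, LMNB2, LBR, EMD, TMPO, SUN1, SUN2, BANF1 and LEMD3. They were found by gene identifier among the 57736 genes of the expression tables, and all 10 had a single row.

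Poly(A)+ RNA was sequenced from HEK293T, an established line of human embryonic kidney origin into which SV40 large T antigen was introduced. The cells were wild type, untreated and taken at 80% confluency from DMEM with 10% serum (37 °C, 5% CO2). There was 1 group with 2 replicates, so nothing was compared between conditions. The labels do not say whether the replicates came from separate cultures, and the spread between them may be technical.

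The libraries held 10593491 and 10104118 estimated counts, meaning that a read matching more than 1 transcript was divided among them. Levels are given in TPM, which scales a gene's count by the length of its transcripts and brings each library to the same total, and detection required 1 TPM or more in each replicate. Of the 5 line markers that could be matched (VIM, KRT8, KRT18, NEFM and PAX2), all 5 were detected. Of 11 markers of fibroblasts, blood and mature kidney, COL1A1 alone was detected, and 4 had 0 counts in both replicates. COL3A1 (0.95 and 1.63 TPM) and LUM (0.85 and 1.40 TPM) passed 1 TPM in replicate 2 only. No endothelial marker was analysed. The summed TPM of these 11 genes was 12.6 and 10.9, and their part in the results below was not tested.

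All 10 lamina and envelope genes were detected. Their mean TPM ran from 18.7 for LEMD3 to 315 for BANF1, a 16.8-fold range. The median over the 10 genes was 153 TPM, and the median over the 12345 detected protein-coding genes was 21.2 TPM. On the log2(mean TPM + 1) scale these medians were 7.27 and 4.47, and the first lay at percentile 93.9 of the detected protein-coding genes. LEMD3, at percentile 46.1, was the only member below the median of those genes. These are descriptions with no test.

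**Figure D1:**
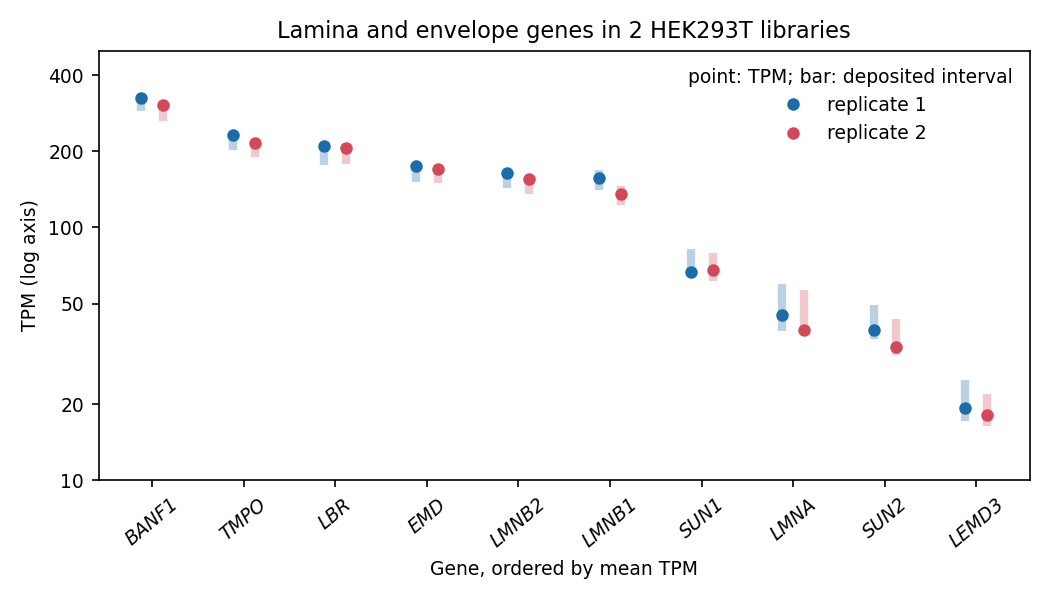
TPM of the 10 genes in each replicate, on a log axis, ordered by mean TPM, with the deposited interval of the TPM estimate as a bar. BANF1 lies highest with 325 and 304 TPM and LEMD3 lowest with 19.4 and 18.1, and a gap separates the 6 highest genes from SUN1, LMNA, SUN2 and LEMD3.

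The lamins differ in how the end of the protein is treated. Prelamin A, the precursor of lamin A, ends in a CaaX box, as do lamin B1 and lamin B2. The cysteine of this box is farnesylated, whereas lamin C, the shorter product of LMNA, has no such end. The last 24 coding bases before the stop codon are shown for the 3 proteins with a CaaX box. This end joins them to the enzymes described further on. They were read on the coding strand from the GRCh37 genome, 5′ to 3′, and the capitals mark the last 4 codons. In each of them the capitals open with a cysteine codon (TGC or TGT).
lamin A (LMNA, chr1:156108871-156108894, + strand): agcccccagaacTGCAGCATCATG
lamin B1 (LMNB1, chr5:126171930-126171953, + strand): tccaatagaagcTGTGCAATTATG
lamin B2 (LMNB2, chr19:2430912-2430935, - strand): acctcaagaggcTGCTACGTGATG

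Transcripts of the B-type lamins were several times as abundant as those of LMNA. LMNB1 (chromosome 5, 126112315 to 126172712, GRCh37) had 157 TPM in replicate 1 and 136 in replicate 2. LMNB2 (chromosome 19, 2427636 to 2456957) had 164 and 155 TPM. LMNA (chromosome 1, 156052364 to 156109872), whose products lamin A and lamin C share most of their exons, had 45.1 and 39.4 TPM. Both libraries thus gave the same ranking of A type below B type, and the ranges over the replicates of LMNA and of either B-type gene did not overlap. The ranges of LMNB1 and LMNB2 overlapped, so that their order was not resolved.

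The ratio of LMNA to the sum of LMNB1 and LMNB2 was 0.140 in replicate 1 and 0.135 in replicate 2 on the TPM scale, a mean of 0.138 ± 0.00357 (SD, n = 2). The sum of the B-type genes was 7.26 ± 0.188 times LMNA (SD, n = 2). The ratio of LMNB2 to LMNB1 was 1.09 ± 0.0759 (SD, n = 2). Lamin A and lamin C could not be told apart, because the tables give a value per gene and not per transcript.

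The size of the LMNA ratio depended on the length by which the counts were divided. In the tables the length of a gene is the mean over its transcripts, weighted by their estimated abundance. For LMNA it was 1500 nt in replicate 1 and 1657 nt in replicate 2, against 3178 nt for the annotated reference transcript, which codes for lamin A. When the counts were instead divided by the length of a single reference transcript per gene, a scaling added after the data were seen, LMNA to B-type lamins was 0.0847 ± 0.00191 (SD, n = 2). B-type transcripts then stood 11.8 ± 0.266 times above LMNA (SD, n = 2). LMNA was below both B-type genes under either scaling.

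BAF, the product of BANF1, bridges DNA and the LEM domain proteins, and BANF1 was the highest of the 10 genes. It lies on chromosome 11 from 65769699 to 65771620 and had 325 TPM in replicate 1 and 304 in replicate 2. TMPO, which encodes the LAP2 proteins, lies on chromosome 12 from 98909357 to 98944129 and had 232 and 216 TPM. EMD, which encodes emerin, lies on chromosome X from 153607633 to 153609934 and had 174 and 171 TPM. LEMD3, which encodes the inner membrane protein MAN1, lies on chromosome 12 from 65563363 to 65642135 and had 19.4 and 18.1 TPM. The LEM domain genes of this group were therefore widely apart, with EMD at 9.22 ± 0.331 times LEMD3 (SD, n = 2), while BANF1 stood at 0.757 ± 0.00867 of the sum of EMD, TMPO and LEMD3 in TPM (SD, n = 2). With the reference transcript lengths described above, BANF1 stood at 1.10 of that sum in replicate 1 and at 0.999 in replicate 2. Of these 2 scalings for length, BANF1 was thus clearly below the sum in TPM only. In estimated counts, which are not scaled for length, it stood at 0.309 of the sum in replicate 1 and at 0.278 in replicate 2.

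LBR, the lamin B receptor, binds B-type lamins and heterochromatin and is also a sterol reductase. It lies on chromosome 1 from 225589204 to 225616627. LBR had 210 TPM in replicate 1 and 206 in replicate 2, a mean of 208 ± 3.02 (SD, n = 2). In TPM, LBR was surpassed by BANF1 and TMPO alone, and stood at 4.95 ± 0.401 times LMNA (SD, n = 2), the other tether of peripheral heterochromatin. With the lengths of the reference transcripts the factor was 4.77 ± 0.358 (SD, n = 2), and EMD, LMNB1 and LMNB2 were then also above LBR.

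The SUN proteins are the inner membrane part of the LINC complex, which couples the lamina to the cytoskeleton. SUN1 (chromosome 7, 856252 to 936072) had 66.6 TPM in replicate 1 and 68.2 in replicate 2. SUN2 (chromosome 22, 39129295 to 39190148) had 39.5 and 33.6 TPM. SUN1 exceeded SUN2 in both libraries, by 1.86 ± 0.238 times in TPM (SD, n = 2). The ratio of the estimated counts, in which the weighted length plays no part, was 1.69 in each library.

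The order by mean TPM was BANF1, TMPO, LBR, EMD, LMNB2, LMNB1, SUN1, LMNA, SUN2 and LEMD3. Of the 9 pairs of neighbours in this order, 7 had ranges over the replicates that did not overlap. LMNB2 and LMNB1, and LMNA and SUN2, did not differ beyond their spread. By the deposited intervals of the TPM estimates, 5 pairs were separated, and TMPO and LBR as well as EMD and LMNB2 were then also unresolved. With 2 values for each gene an exact permutation test of a pair cannot give a p under 0.333, so no such test was made.

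The upper part of this order changed with the scaling for length. All 10 genes had a weighted length below that of their reference transcript in both replicates, but to unequal degrees. For LMNA, LMNB2, TMPO, SUN2 and LEMD3 the reference is the longest listed transcript found in the annotation. A weighted mean has little or no room above it, so for these genes only the degree is informative. The weighted length was 47.8% of the reference transcript for LBR, 48.0% for TMPO, 49.7% for LMNA, 51.4% for SUN1 and 55.4% for SUN2, as a mean of the replicates. It was 96.0% for BANF1, 89.9% for LEMD3, 88.5% for EMD, 84.2% for LMNB1 and 75.4% for LMNB2. LBR, TMPO, LMNA, SUN1 and SUN2 are thus those whose TPM rests on a large estimated share of transcripts shorter than the reference. Several of them have many annotated transcripts, with 37 listed for SUN1, 26 for LMNA and 20 for SUN2.

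**Figure D2:**
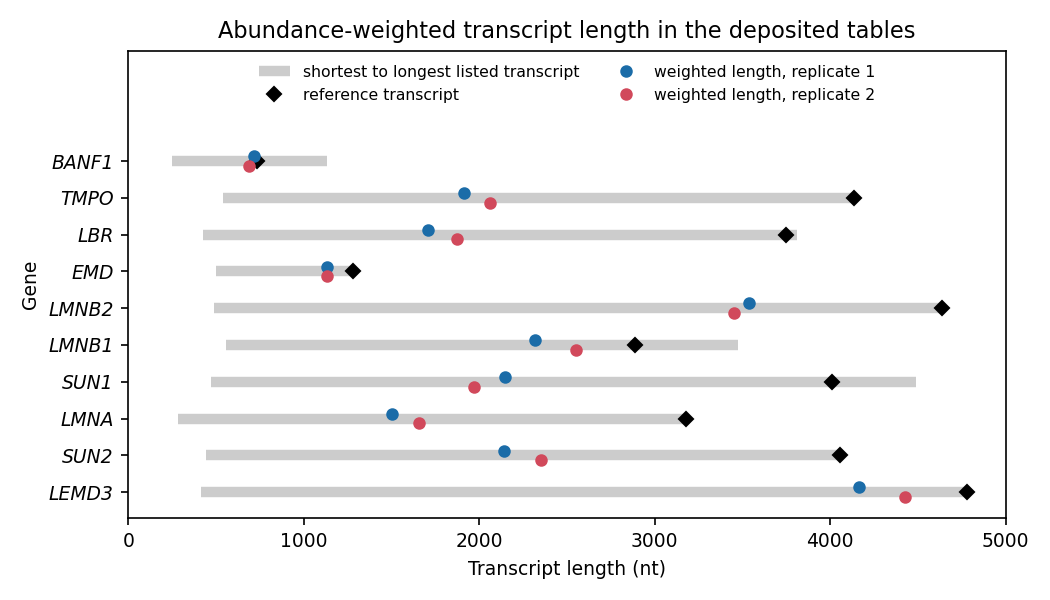
Abundance-weighted transcript length of each gene in nt in replicates 1 and 2 (circles), with the reference transcript (diamond) and the span from the shortest to the longest listed transcript found in the annotation (grey). For TMPO the circles stand at 1913 and 2060 nt and the diamond at 4136 nt, whereas for BANF1 they stand at 715 and 688 nt beside 731 nt.

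With counts per length of the reference transcript, 5 genes changed rank and 5 kept it. EMD moved up from the fourth to the second place, LMNB1 and LMNB2 took the places after it, and TMPO and LBR moved down to the fifth and the sixth. TMPO to EMD was 1.33 in replicate 1 and 1.26 in replicate 2 by TPM, and 0.709 and 0.725 with the reference lengths, so that the direction of this pair turned. BANF1 stayed first, and SUN1, LMNA, SUN2 and LEMD3 stayed in the last 4 places in the same order. No value of the tables says which scaling is closer to the number of transcripts.

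**Figure D3:**
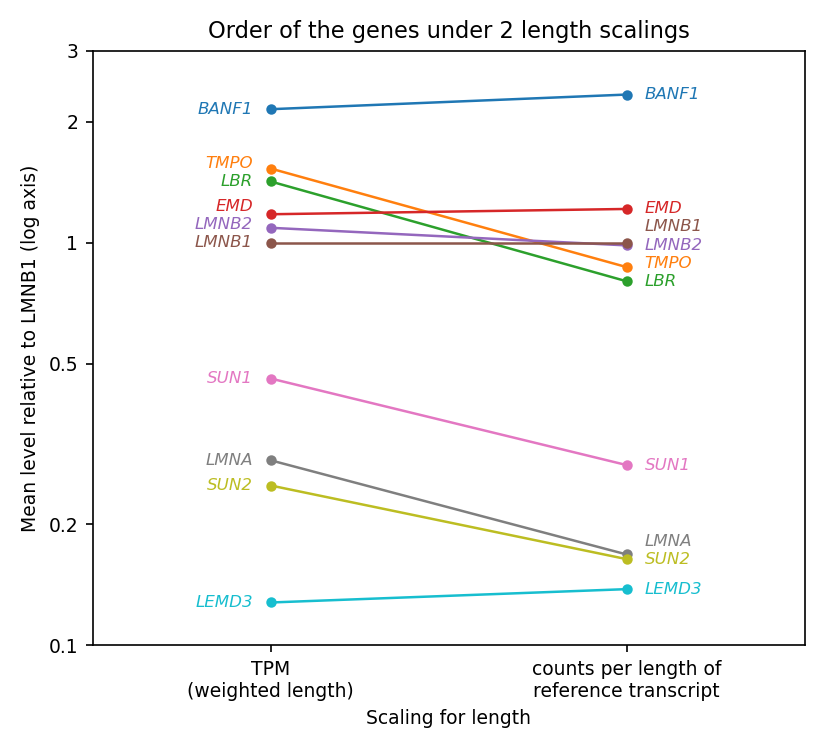
Mean level of each gene relative to LMNB1 on a log axis, in TPM (left) and as counts per length of the reference transcript (right). The lines of TMPO and LBR fall from 1.53 and 1.42 to 0.870 and 0.802 and cross those of EMD, LMNB1 and LMNB2, while BANF1 stays highest and LEMD3 lowest.

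The uncertainty from shared reads was small for these genes. The posterior SD of the count, which describes how reads that fit several genes might be shared out differently, was 0 in both replicates for 5 members (LMNA, LMNB1, LBR, EMD and LEMD3), against 41.7% of detected protein-coding genes. It was largest for SUN1, at 10.8 of 1043 counts (1.04%) in replicate 1, and for SUN2, at 8.22 of 556 counts (1.48%) in replicate 2. For LMNB2, TMPO and BANF1 it stayed below 0.150% of the count. For all 10 genes it was below the counting error, the square root of the count, which lay between 1.53% for LMNB2 and 4.69% for LMNA. Uncertainty about transcripts within a gene is not part of this SD. It is part of the deposited TPM interval, which for LMNA spanned 39.1 to 59.5 in replicate 1 and for EMD 151 to 173. The TPM itself lay outside its interval in 5 of 20 cases, since the interval surrounds the posterior mean and not the printed TPM.

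Genes with copies or overlapping neighbours were examined for this reason. BANF1 has 5 processed pseudogenes in the annotation, BANF1P1 to BANF1P5, which together held 7.15 and 5.88 estimated counts, or 0.442% and 0.421% of the counts of BANF1. The pseudogenes TMPOP1 and TMPOP2 held 8.06 and 4.03 counts together, 0.249% and 0.129% of those of TMPO. SUN1 is overlapped on its own strand by GET4, which had 35.4 and 32.7 TPM, and on the other strand by ENSG00000273151. SUN2 is overlapped by 8 annotated genes, among them GTPBP1 on the other strand with 56.5 and 51.2 TPM and DNAL4 on its own strand with 13.2 and 14.3 TPM. The sources used here do not say whether counting was by strand, so reads in the overlaps of SUN1, SUN2 and TMPO cannot be assigned with certainty.

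The starts of 4 of the 10 genes face that of a gene on the opposite strand within 1000 bp, as do 29.7% of the detected protein-coding genes. Distances run from the outermost annotated start of each gene. BANF1 starts 52 bp from EIF1AD, an initiation factor-like gene with 35.2 and 26.9 TPM. LMNA starts 108 bp from MEX3A, an RNA-binding protein gene with 17.0 and 17.9 TPM. A further start of LMNA lies farther downstream, and which start its transcripts used here was not tested. LMNB1 starts 137 bp from the noncoding LMNB1-DT, which had 1 and 3 counts. TMPO overlaps the antisense TMPO-AS1, with 3.84 and 2.44 TPM, and their starts are 843 bp apart. In each of these arrangements the member had the higher TPM in both libraries, although MEX3A had more counts than LMNA (728 and 634 against 488 and 455). Promoter sequence of RefSeq (GRCh38.p14, from 250 bases before to 50 after each start) was at hand for 9 members, SUN1 being without one. Some of the 9 had several starts. Of these 9, 8 had at least 1 CpG-rich start (over 50% G and C and a ratio of observed to expected CpG above 0.6). LBR had none, with 38.3% G and C. LMNA and SUN2 each also had a start below the ratio limit, at 0.561 and 0.499. Of 10020 promoters of detected protein-coding genes, 88.9% were CpG rich. This share counts promoters, whereas the members were counted by gene, so they are not directly comparable. The letters TATAAA, on either strand, were in none of the 9 members and in 8.39% of those 10020 promoters.

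The replicates were compared gene by gene: each gene's counts were set against the scaled library sizes in an exact binomial test, two-sided, with Benjamini-Hochberg adjustment over all 17920 genes tested. It compares these libraries and not conditions, treats reads as independent molecules and covers counting error only. Of all genes tested, 3.88% differed at an adjusted p of 0.05, 2.14% being higher in replicate 2 and 1.74% in replicate 1. Of the 10 members 1 differed, LBR, with 2602 counts in replicate 1 and 2698 in the smaller library of replicate 2. Its log2 ratio of scaled counts was 0.13 in favour of replicate 2 (exact binomial test, adjusted p = 0.0311). LBR fell short of the threshold with other scalings of the libraries, at adjusted p = 0.116 with RLE and 0.0573 with total counts in the same exact test.

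At an unadjusted p of 0.05, 3 members would be counted, LBR, LMNB2 and BANF1, against 13.3% of all genes tested. LMNB2 and BANF1 had more scaled counts in replicate 1 and did not pass the adjusted threshold. LMNB2 had 4261 and 3801 counts, a log2 ratio of -0.09 (exact binomial test, p = 0.00701, adjusted p = 0.119). It passed with RLE scaling, at a log2 ratio of -0.11 and adjusted p = 0.0220 in the same exact test. BANF1 had 1618 and 1397 counts, a log2 ratio of -0.13 (exact binomial test, p = 0.0113, adjusted p = 0.160), and its neighbour EIF1AD, with 522 and 402 counts, had a log2 ratio of -0.30 and an adjusted p of 0.0466 in this exact test. The other 7 members had log2 ratios from -0.07 to 0.03. The median absolute log2 ratio of scaled counts was 0.06 over the 10 members and 0.07 over the 6367 detected protein-coding genes within the same range of TPM.

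In TPM, by contrast, 9 of the 10 genes were higher in replicate 1, SUN1 being the exception, as were 58.2% of the detected protein-coding genes. LBR shows how the scales part: its counts were higher in replicate 2 and its TPM slightly higher in replicate 1, because its weighted length was 1708 nt in replicate 1 and 1873 nt in replicate 2. The weighted length was longer in replicate 2 for 7 members and for 51.0% of detected protein-coding genes. The largest changes in length were 10.5% for LMNA, 10.1% for LMNB1, 9.85% for SUN2 and 9.64% for LBR, and the median absolute change was 7.89% over the members and 5.09% over the detected protein-coding genes. On the log2(TPM + 1) scale the median absolute difference between the replicates was 0.10 for the members and also 0.10 for protein-coding genes of the same range.

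**Figure D4:**
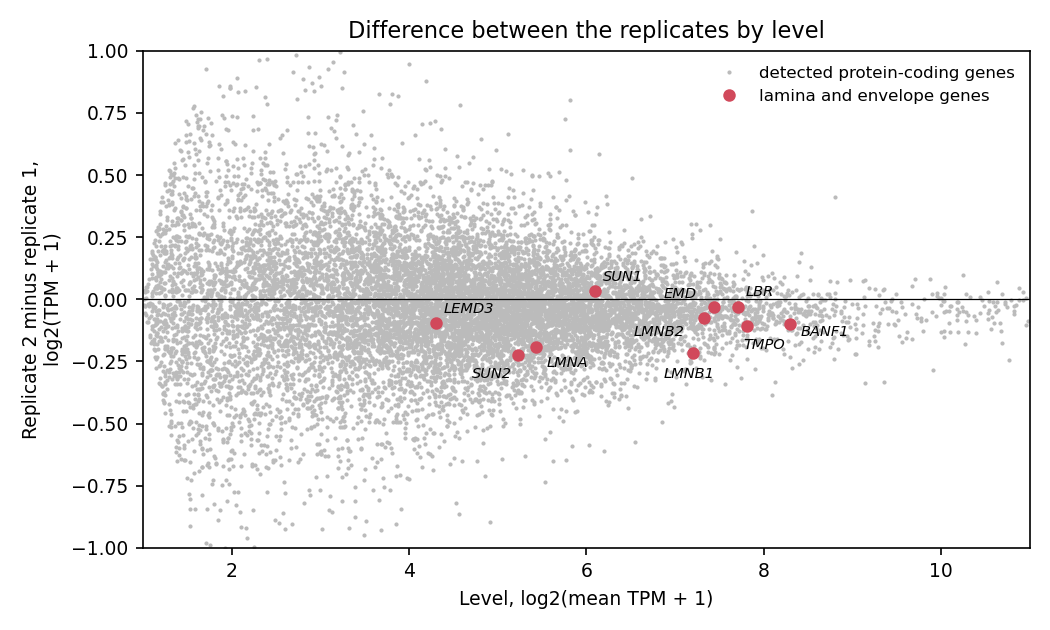
Difference between the replicates, replicate 2 minus replicate 1 in log2(TPM + 1), against level as log2(mean TPM + 1), for detected protein-coding genes (grey; 45 of 12345 lie outside the drawn range) and the 10 lamina and envelope genes (red). The red points lie between -0.22 for SUN2 and 0.03 for SUN1, within the grey cloud.

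The wider system was read from 7 lists of related genes, 50 genes in all, of which 43 were detected. In the library comparison 45 of the 50 genes could be tested. Of these 2 differed, ZMPSTE24 and CBX3, against a background of 3.88% of all genes tested in either direction. Both were higher in replicate 2, with 2.14% of all genes tested called in that direction.

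The enzymes that process the lamin ends shown above were all detected. FNTA and FNTB encode the subunits of farnesyltransferase, RCE1 removes the last residues, ICMT methylates the new end, and ZMPSTE24 cleaves prelamin A. ICMT was the highest with 89.2 and 83.3 TPM, followed by FNTA with 46.8 and 48.8. FNTB was the lowest with 15.4 and 20.3 TPM. ZMPSTE24 had 922 and 1008 counts, a log2 ratio of 0.21 (exact binomial test, adjusted p = 0.0449). The median of the 5 genes was 44.6 TPM, close to the level of LMNA itself.

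Of the other LEM domain genes, ANKLE2 had 81.1 and 69.4 TPM and LEMD2 36.0 and 33.4, both above LEMD3 in TPM. In estimated counts LEMD2, with 466 and 414, was below LEMD3, with 595 and 568. ANKLE1 was near the detection threshold with 1.84 and 1.60 TPM. LEMD1, a gene known from testis, had 0 counts in both replicates. A count of 0 allows up to 3 counts, or 0.283 CPM in the first library and 0.297 CPM in the second, and this limit covers counting error only.

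The rest of the LINC complex was the lowest of the lists, with 3 of 8 genes detected and a median of 0.915 TPM. The nesprins, outer membrane partners of the SUN proteins, were led by SYNE2 with 12.8 and 13.7 TPM and SYNE1 with 7.87 and 10.0. SYNE3 had 0.930 and 0.940 TPM and SYNE4 0.950 and 0.840, just below the threshold. Among the SUN family members known from the germ line, SPAG4 was detected with 3.47 and 3.76 TPM, SUN3 had 0 counts and 1 count, and SUN5 had 0 in both. KASH5, a meiotic partner of SUN1, had 0 counts and 1 count. SUN1 and SUN2 were thus the highest of the SUN family genes, and in TPM both stood above every nesprin gene in both libraries. In estimated counts SYNE2, with 912 and 895, exceeded SUN2, with 616 and 556. The order of this pair thus differed between TPM and estimated counts, which are not scaled for length.

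**Figure D5:**
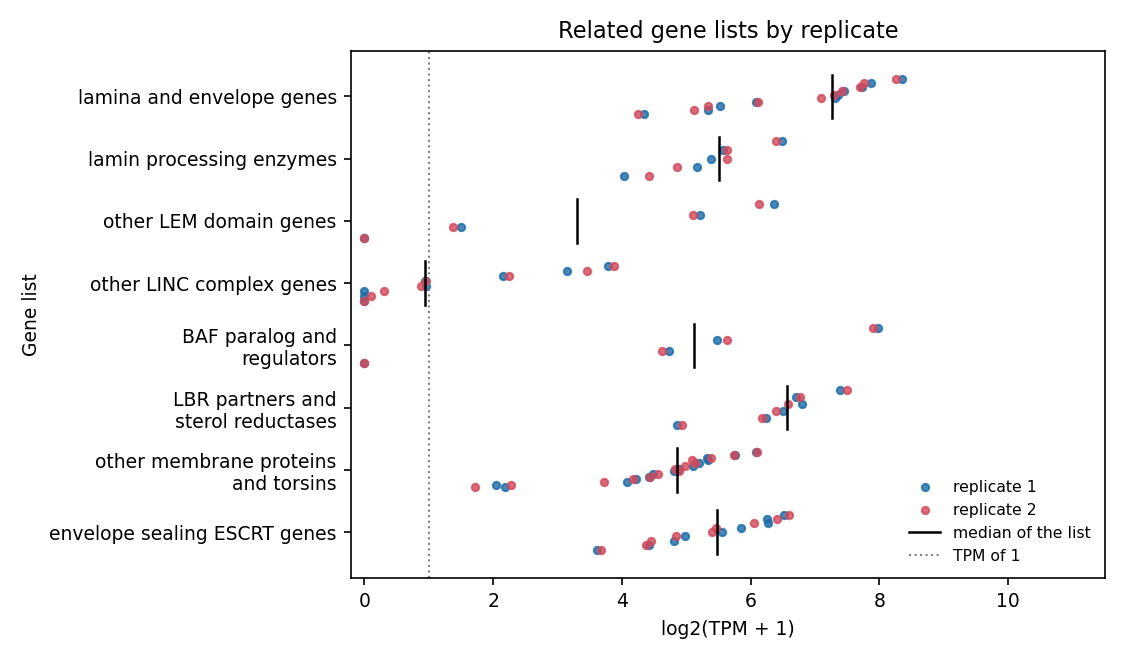
Level of each gene in log2(TPM + 1) in both replicates for the 10 lamina and envelope genes and 7 related lists, with the median of each list (line) and a TPM of 1 (dotted). All of the first list lie right of the dotted line, whereas 5 of the 8 other LINC complex genes lie left of it.

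BANF2, the paralog of BANF1, had 0 counts in both replicates, so that the high level of the BAF gene family came from BANF1. Of the genes that regulate BAF, PPP2R1A, a subunit of the phosphatase PP2A, had 252 and 238 TPM. The kinase genes VRK1 and VRK2 had 43.4 and 48.8, and 25.6 and 23.7 TPM. All 3 regulators were detected.

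The heterochromatin partners of LBR and the sterol reductases related to it were all detected, with a median of 94.4 TPM. CBX3, which encodes HP1 gamma, had 166 and 179 TPM and 1799 and 1928 counts, a log2 ratio of 0.18 (exact binomial test, adjusted p = 0.00817). DHCR7, an enzyme of cholesterol synthesis, had 104 and 108 TPM, and the lowest of the list was TM7SF2, the other sterol C14 reductase, with 28.1 and 29.6 TPM. LBR thus stood above TM7SF2 in both libraries.

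All 14 other membrane proteins and torsins of the envelope were detected, with a median of 27.9 TPM. TOR1AIP2 (67.2 and 67.5 TPM) and TOR1AIP1 (53.3 and 52.5 TPM), which encode partners of the torsins, were the highest. PLPP7, known from muscle, was the lowest by the mean of the replicates, with 3.54 and 2.29 TPM, although DPY19L2 was lower in replicate 1 with 3.15 and 3.83. All 9 genes of the ESCRT machinery that seals the envelope were detected, with a median of 43.8 TPM. IST1 had 90.3 and 95.9 TPM, VPS4A 75.6 and 83.7, and SPAST, a severing enzyme of microtubules at the closing envelope, was the lowest with 11.2 and 11.8. None of these 23 genes differed between the libraries at an adjusted p of 0.05 in the exact binomial test, against 3.88% of all genes tested. An unadjusted p under 0.05 in this test was reached by 4 of them, against 13.3% of all genes tested. Neither count is read as a result about these genes.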

How the data were processed

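Per the study's methods, reads (50 bp) were filtered with Trimmomatic and aligned to GRCh37 with STAR, and the annotation was Ensembl release 87. The submitters' processing notes give Trimmomatic 0.36, STAR 2.6.1c and RSEM 1.3.1. For quantification the methods state featureCounts, but the deposited columns are RSEM's. Estimated counts, TPM and FPKM were deposited by the authors for each replicate, with posterior means. Posterior SDs of counts and limits of TPM intervals, likewise deposited, were treated as scores. A deposited table of pooled reads was read for comparison only: its estimated count was within 1 of the sum of the replicates for 7 of the 10 genes.

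The 10 genes and the related lists were chosen with earlier results of these data known. Symbols and coordinates came from GENCODE release 44 on GRCh37, and 96.1% of gene identifiers were matched. Reference transcripts were the Ensembl canonical ones. For SUN2 the longest listed coding transcript was used. Of 34175 genes with a single listed transcript, 89.3% had the same length there as in the tables, within 0.5 nt.

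Counts were rounded to whole numbers, scaled by TMM (edgeR 4.0.16, R 4.3.3) and compared by an exact binomial test (scipy 1.17.1) for genes whose counts summed to 10 or more, with 0.5 counts added for log2 ratios. The test was checked on simulated counts that held counting error only, with total counts as library sizes. It recovered 157 of 200 changed genes with the right sign and called 4 unchanged genes. Other variation between libraries, and the TMM scaling, were not part of this check. Alternatives were other scalings, filters, units and lengths, and leaving out a replicate. All 10 genes are named, with the 2 highest and the lowest of each related list, listed genes below the detection threshold, pseudogenes, neighbours and overlapping genes. ZMPSTE24, VRK2 and DPY19L2 were named after their values were seen. Likeness of pattern to other genes was not computed, since 2 samples of 1 group hold none. A sequence at 1 further site is not reported here. Depth was 10593491 and 10104118 counts.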

Additional observations from a re-analysis of the deposited data

How the results depend on the processing

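No paired analysis was possible because there is only 1 group. All 10 genes were detected at 0.1 and 5 TPM, at 1 FPKM, at 10 estimated counts and in each replicate alone, and the number of related genes detected ranged from 39 to 45. The median level of the 10 genes was 6.77 in log2(FPKM + 1), and 7.19 to 7.34 without either replicate. Its percentile was 94.9 among all detected genes, 96.1 among protein-coding genes with no filter on level, and 93.8 to 94.3 without either replicate. The ratio of LMNA to the B-type lamins was 0.164 with posterior mean TPM, 0.0717 in estimated counts, 0.135 to 0.140 without either replicate, and 0.0847 with the added scaling by reference transcripts. The divisor for length is the only difference between the last of these and the ratio of counts.

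LBR alone of the 10 differed between the libraries. In the exact binomial test the number was 0 with total counts and 0 with a summed count of at least 1, with 3 at an unadjusted p under 0.05 in each. With RLE it was LMNB2 in place of LBR. Over all genes 696 differed, and 448 with posterior mean counts. The number of separated neighbours was 5 to 8 of 9 over the alternatives. The causes of the other changes were not tested. At this depth differences of the size of LMNB2 and BANF1 were near the threshold.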
